A study of Danio rerio with 12 samples.

Results

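The genes described here are 7 zebrafish genes of selenoproteins and glutathione peroxidases, selenop, selenop2, selenow1, selenoh, gpx1a, gpx4a and gpx4b, out of 13680 genes measured. They were taken by name from the table of the series, where all 7 were present once. The set was chosen by the paternal comparison of this same table, that is, by the library values and the deposited false discovery rates of selenop and selenop2, which were among the lowest. The differences between paternal groups are therefore given below as a description of these libraries. Where counts of calls from fits over the whole table are given for the 7 genes, they follow from how the genes were chosen and nothing is read from them.

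The samples were whole zebrafish embryos of the AB laboratory strain at 24 hours after fertilisation, 1 to 3 embryos of a clutch per library. Embryos of starved fathers (6 libraries) came from eggs of fed wild-type females fertilised in vitro with sperm of starved males. Embryos of fed fathers (6 libraries) came from eggs of such females fertilised with sperm of fed males, so that both groups shared the strain, the age, the fed mothers and the fertilisation in vitro. The labels do not give the length of the starvation or say whether each library had its own father, so the spread given below is that between these libraries, and part of it may be technical. Transcripts were counted by 3' RNA sequencing, which reads transcripts from the polyadenylated end, so a level depends little on transcript length. Whether levels of different genes may be compared in other respects was not tested.

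Selenoproteins contain selenocysteine, an amino acid with selenium in place of sulphur, which the ribosome inserts at a UGA codon when the messenger RNA carries a selenocysteine insertion element in its 3' untranslated region. Selenoprotein P is secreted into the plasma and carries selenium to other tissues; in mammals most of it comes from the liver. Glutathione peroxidases use glutathione to reduce peroxides: Gpx1 acts on hydrogen peroxide and small organic peroxides in the cytosol, and Gpx4 on lipid hydroperoxides within membranes, which protects cells from ferroptosis in mammals.

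The whole reads behind the values came to between 2950739 and 3934765 per library. Genes of the mitochondrial genome took 29.4% of these reads in starved replicate 3, the lowest share, and 50.5% in fed replicate 5, the highest. Reads of the 7 genes per library ran from 20 for selenop2 in starved replicate 2 to 1769 for gpx4a in fed replicate 4. Markers of the embryo's main tissues were present: of the 13 skeletal muscle, 9 neural and 12 epidermal genes on fixed lists none was at 0 in any library. Yolk-layer genes were highest in fed replicates 4 and 5, and among libraries of starved fathers in starved replicate 4. The yolk syncytial layer is the tissue that digests yolk and releases its lipid. The summed normalised read count of 29 genes of this layer and of plasma proteins was between 3960 and 13990 (median 7645) in embryos of starved fathers and between 7681 and 19960 (median 10620) in embryos of fed fathers, with 17180 in fed replicate 4 and 19960 in fed replicate 5. The log2 differences of the 7 genes, their spreads and their likeness to other genes are given below with and without fed replicates 4 and 5. The same holds for the medians of the lists that these fed libraries moved most. Other values are those of all 12 libraries.

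The 7 genes covered a wide range of levels. The mean normalised read count over the 12 libraries was 267 ± 171 for gpx4a, 200.2 ± 87.1 for selenop, 156 ± 28.7 for selenoh, 107 ± 30.9 for selenow1, 81.6 ± 15.5 for gpx4b, 30.9 ± 7.09 for gpx1a and 20.9 ± 17.5 for selenop2 (SD, n = 12). Of all genes, 2.46% had a higher mean than gpx4a and 29.2% a higher mean than selenop2. Between neighbours in this order, the ranges over libraries were apart only for gpx4b over gpx1a, which held in 12 of 12 libraries. The order of gpx4a over selenop held in 4 of 6 libraries of starved and 3 of 6 of fed fathers, so these neighbours did not differ beyond their spread. That of selenop over selenoh held in 2 of 6 libraries of starved and 5 of 6 of fed fathers, so their order was not the same in both groups.

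**Figure D1:**
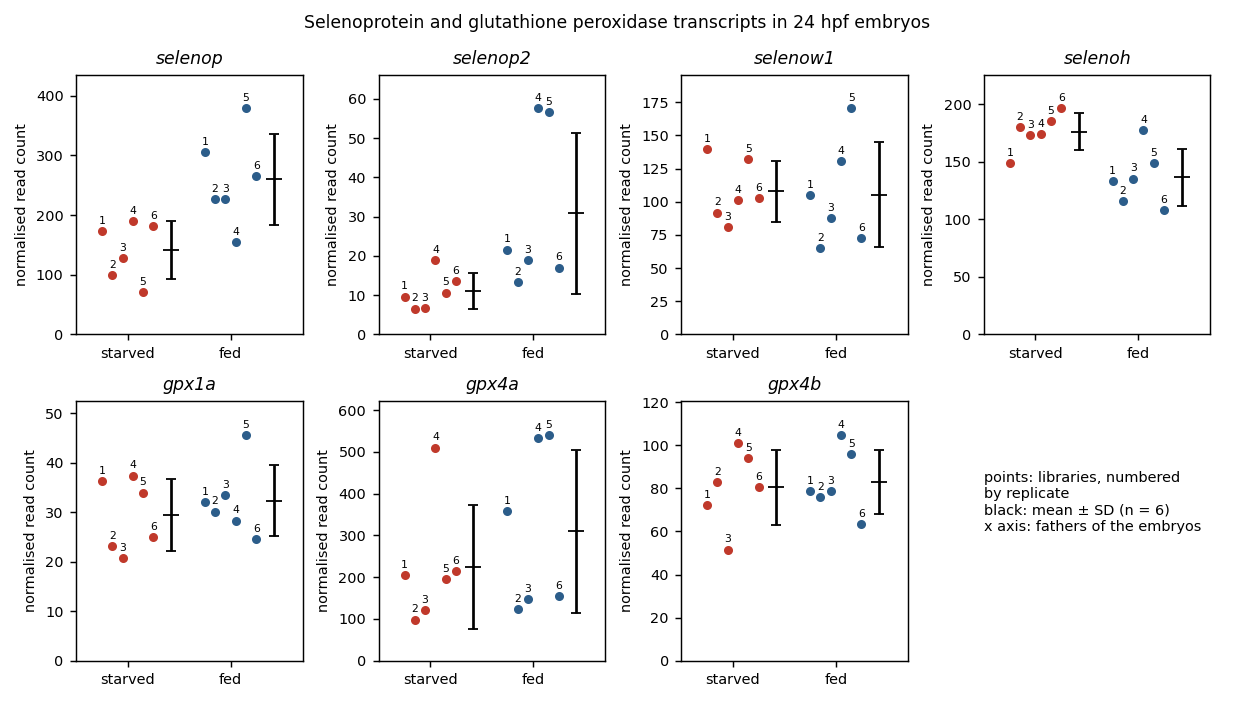
Normalised read count (y axis, from 0, its own scale for each gene) of the 7 genes in each library of embryos of starved fathers (left) and fed fathers (right); points carry the replicate number and black bars show mean ± SD (n = 6 each). All 7 genes overlap between the groups, and gpx4a and selenop2 have their highest points in a few libraries, among them fed replicates 4 and 5.

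Both selenoprotein P genes had lower levels in embryos of starved fathers, and leaving out fed replicates 4 and 5 moved the difference of selenop2 more than that of selenop. The gene selenop (ENSDARG00000093549, chromosome 8, bases 31435452 to 31443334, build GRCz11) had a normalised read count of 71.0 at the lowest, 151 at the median and 190.2 at the highest in embryos of starved fathers, against 155, 246 and 378 in embryos of fed fathers. Each library of starved fathers had less than the fed mean, and the groups overlapped only through fed replicate 4, which at 155 was below starved replicates 1, 4 and 6. The means were 141 ± 48.8 in embryos of starved fathers and 259 ± 76.6 in embryos of fed fathers (SD, n = 6 each). The log2 difference, on the scale of log2(value + 1) that understates changes of low genes, was -0.91 ± 0.23 (SE, limma). The SE from limma is drawn towards that of genes of like level. It is therefore smaller than a gene's own SE for genes that vary more than those, and larger for steadier ones.

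The gene selenop2 (ENSDARG00000079727, chromosome 2, bases 27394798 to 27401105) is the second selenoprotein P gene of zebrafish. Its normalised read count was 6.6, 10.1 and 18.9 (lowest, median, highest) in embryos of starved fathers and 13.3, 20.2 and 57.5 in embryos of fed fathers. The top of the fed group was made by fed replicates 4 and 5, at 57.5 and 56.5, while the other 4 libraries of fed fathers lay between 13.3 and 21.6. Starved replicates 4 and 6, at 18.9 and 13.6, were those that reached into the fed range. The means were 11.0 ± 4.64 in embryos of starved fathers and 30.8 ± 20.5 in embryos of fed fathers (SD, n = 6 each), and the log2 difference was -1.25 ± 0.34 (SE, limma). In bulk samples such as these, fewer cells that make a transcript and less transcript per cell cannot be told apart.

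Without fed replicates 4 and 5, a choice made after the values were seen, the log2 difference of selenop was -0.93 ± 0.22 and that of selenop2 was -0.70 ± 0.30 (SE, limma). The mean of selenop was then 141 ± 48.8 in embryos of starved fathers (n = 6) and 256 ± 37.2 in embryos of fed fathers (SD, n = 4), and that of selenop2 was 11.0 ± 4.64 in embryos of starved fathers (n = 6) and 17.7 ± 3.49 in embryos of fed fathers (SD, n = 4). With the libraries numbered 4 and 5 left out of both groups, the log2 difference was -0.84 ± 0.18 for selenop and -0.92 ± 0.31 for selenop2 (SE, limma).

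The 2 genes parted most in fed replicate 4. The share of selenop2 in the reads of both genes, a ratio within a library in which library scaling cancels, had a mean of 7.57 ± 3.04% in embryos of starved fathers and 11.0 ± 8.34% in embryos of fed fathers (SD, n = 6 each). It lay between 5.0 and 13.0% in embryos of starved fathers. In embryos of fed fathers it was between 5.54 and 13.0% in 5 libraries and 27.1% in fed replicate 4, in which selenop was at its lowest and selenop2 at its highest in that group. Without fed replicate 4 the mean share of the fed group was 7.77%.

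Among the intracellular selenoproteins, selenoh was higher and selenow1 close to equal in embryos of starved fathers. Selenoprotein H is a small redox protein of the nucleolus. Its gene selenoh (ENSDARG00000093022, chromosome 8, bases 7315625 to 7317444) had a normalised read count of 149, 177 and 196 (lowest, median, highest) in embryos of starved fathers and 108, 134 and 177 in embryos of fed fathers. Each library of starved fathers had more than the fed mean, and fed replicate 4, at 177, was the only library of fed fathers above the median of the starved group. The means were 176 ± 15.8 in embryos of starved fathers and 136 ± 24.8 in embryos of fed fathers (SD, n = 6 each), with a log2 difference of 0.38 ± 0.15 (SE, limma), and 0.52 ± 0.14 without fed replicates 4 and 5. The whole span of selenoh lies within that of another listed gene, ssuh2rs1 (bases 7311478 to 7352278), which averaged 35.4 ± 8.72 in embryos of starved fathers and 45.6 ± 12.7 in embryos of fed fathers (SD, n = 6 each).

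Selenoprotein W is a small thioredoxin-like protein that is abundant in muscle of mammals. Its gene selenow1 (ENSDARG00000035136, chromosome 5, bases 61998641 to 62005081) had a normalised read count of 80.8, 102 and 139 (lowest, median, highest) in embryos of starved fathers and 65.2, 96.3 and 170.3 in embryos of fed fathers. The range of the starved group lay within that of the fed group, which reached 170.3 in its replicate 5 and 130.4 in its replicate 4. The means were 108 ± 23.0 in embryos of starved fathers and 105 ± 39.6 in embryos of fed fathers (SD, n = 6 each), and the log2 difference was 0.09 ± 0.21 (SE, limma), less than its error. Without fed replicates 4 and 5 it was 0.38 ± 0.18.

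The 3 glutathione peroxidase genes overlapped widely between the groups, and gpx4a stood out by its spread. Its product and that of gpx4b are the zebrafish counterparts of mammalian Gpx4. The gene gpx4a (ENSDARG00000068478, chromosome 22, bases 17589608 to 17611742) had a normalised read count of 98.4, 199.7 and 509.9 (lowest, median, highest) in embryos of starved fathers and 123, 257 and 541 in embryos of fed fathers. Starved replicate 4 was at 509.9 and the other 5 libraries of that group were between 98.4 and 215. In embryos of fed fathers 3 libraries were high, replicate 5 at 541, replicate 4 at 533 and replicate 1 at 358, and the other 3 were between 123 and 156.

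The mean of gpx4a was 224 ± 148 in embryos of starved fathers and 309.7 ± 195 in embryos of fed fathers (SD, n = 6 each). The log2 difference was -0.41 ± 0.37 (SE, limma without a block), close to that error. When replicate number was added to the limma fit as a block, its SE was 0.16, and with the description code as a block 0.20. Without a block and without fed replicates 4 and 5 the difference was 0.12 ± 0.32, so the sign turned. It was -0.24 ± 0.26 without the libraries numbered 4 and 5 of both groups. The listed gene polr2eb shares 4995 bases of span with gpx4a and averaged 108 ± 11.9 in embryos of starved fathers and 110 ± 24.3 in embryos of fed fathers.

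The gene gpx4b (ENSDARG00000076836, chromosome 2, bases 56642138 to 56655769) had a normalised read count of 51.6, 81.7 and 101 (lowest, median, highest) in embryos of starved fathers and 63.4, 78.8 and 105 in embryos of fed fathers. Its means of 80.4 ± 17.4 in embryos of starved fathers and 82.9 ± 14.9 in embryos of fed fathers (SD, n = 6 each) differed by -0.06 ± 0.18 (log2, SE, limma), and by 0.09 ± 0.18 without fed replicates 4 and 5. The lowest library was starved replicate 3 and the highest fed replicate 4, and the groups covered nearly the same range. The share of gpx4b in the reads of gpx4a and gpx4b together ran from 16.5 to 45.7% (mean 29.7 ± 9.56%) in embryos of starved fathers and from 15.1 to 38.2% (mean 25.2 ± 10.1%) in embryos of fed fathers (SD, n = 6 each). It was lowest in fed replicates 4 and 5 and in starved replicate 4, where gpx4a was highest. Since gpx4a is part of the total, this follows in part from how the share is computed.

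The gene gpx1a (ENSDARG00000018146, chromosome 11, bases 36048579 to 36156971) had a normalised read count of 20.7, 29.5 and 37.4 (lowest, median, highest) in embryos of starved fathers and 24.7, 31.1 and 45.7 in embryos of fed fathers. Relative to the fed mean, 3 of 6 libraries of starved fathers were lower and 3 higher. The means were 29.4 ± 7.31 in embryos of starved fathers and 32.4 ± 7.2 in embryos of fed fathers (SD, n = 6 each), and the log2 difference was -0.14 ± 0.20 (SE, limma), or -0.06 ± 0.22 without fed replicates 4 and 5. The annotated span of gpx1a, 108393 bases, shares 108357 bases with that of brk1, which averaged 41.8 ± 12.6 in embryos of starved fathers and 41.7 ± 11.6 in embryos of fed fathers. Only whole annotated spans were compared, and the sources do not say whether strand was used in counting. Whether reads of gpx1a, gpx4a and selenoh were mixed with reads of the genes that overlap them was not tested.

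As a set, 5 of the 7 genes were lower and 2 higher in embryos of starved fathers by the mean of log2 values, where 52.0% of all genes were lower. For none of the 7 were the groups free of overlap over the 12 libraries, as they were for 0.124% of all genes in the lower and 0.11% in the higher direction. The median log2 difference was -0.14 over the 7 genes and -0.01 over all genes. With fed replicates 4 and 5 left out, 3 of the 7 were lower and 4 higher, and the median was 0.09. With the libraries numbered 4 and 5 left out of both groups, each of the 7 kept the direction it had over the 12 libraries. The log2 difference was then -0.21 ± 0.24 for gpx1a, -0.24 ± 0.26 for gpx4a, -0.07 ± 0.19 for gpx4b and 0.32 ± 0.20 for selenow1 (SE, limma). Both settings were chosen after the values were seen. With limma on log2 values, without a block, none of the 7 (0 of 7) had an adjusted p below 0.05, and 0.0% of all genes had one. Unadjusted p was below 0.05 for 758 of all genes with limma, 649 with edgeR and 754 with DESeq2, both on the recovered reads, and these count tests also passed none after adjustment. In the authors' deposited table, selenop2 (log2 fold change -1.42, FDR 1.78e-05) and selenop (log2 fold change -0.87, FDR 0.000259) are listed as lower at an FDR below 0.05, which that table gives in this direction for 0.621% of all genes. The other 5 genes have an FDR between 0.162 (gpx4a) and 0.988 in the authors' deposited table.

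Replicates of the same number resembled each other across the groups, so the genes were also set side by side within the 6 same-numbered pairs. The gene selenop2 was lower in the library of starved fathers in 6 of 6 pairs, as were 2.7% of all genes, with a ratio between 0.188 in pair 5 and 0.796 in pair 6. The gene selenop was lower in 5 of 6 pairs, with a ratio of 0.188 in pair 5, between 0.441 and 0.687 in pairs 1, 2, 3 and 6, and 1.23 in pair 4. For gpx4a the library of starved fathers was lower in 5 of 6 pairs, with ratios from 0.361 in pair 5 to 1.38 in pair 6. At least 5 lower pairs were seen in 13.6% of all genes, and at least 5 higher pairs in 12.4%.

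For selenoh the library of starved fathers was the higher in 5 of 6 pairs, with ratios from 0.98 in pair 4 to 1.81 in pair 6. For selenow1 and gpx1a it was higher in 3 pairs and lower in 3, and for gpx4b higher in 2 and lower in 4. Pair 5 held the lowest ratio of selenop, selenop2 and gpx4a alike, and also that of selenow1 (0.775, against 0.776 in pair 4). In that pair the fed library was also the one with the largest yolk-layer sum. When replicate number was added to the limma fit as a block, 2 of the 7 genes were called, selenop and selenop2, both lower, and 0.227% of all genes were called in that direction. With the description code as the block there were 0 of 7, and 0.00731% of all genes. The deposited rates that chose the set come from the same contrast, so nothing is read from these counts.

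**Figure D2:**
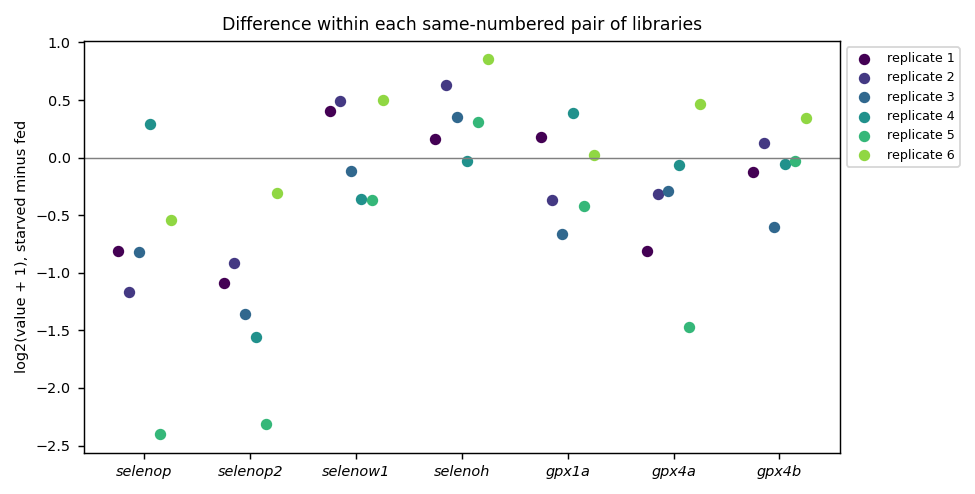
Difference in log2(value + 1) between the library of starved fathers and the library of fed fathers with the same replicate number (y axis) for each of the 7 genes (x axis); each point is 1 pair, coloured by its number, and the line marks no difference. All 6 points of selenop2 lie below the line and 5 of 6 points of selenop, while 5 of 6 points of selenoh lie above it.

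Independently of the paternal groups, the 7 genes differed widely in how much libraries of the same group varied. The variance within groups was 377 times that expected from counting reads for gpx4a, 68.8 times for selenop, 35.1 for selenop2, 33.1 for selenow1, 10.8 for gpx4b, 9.32 for selenoh and 5.73 for gpx1a. At equal relative spread this ratio rises with the level of a gene, so it does not by itself rank the 7 genes by spread. The SD within groups on the log2 scale was 0.90 for gpx4a, and 96.9% of the 519 genes with a mean between 0.5 and 2 times that of gpx4a had a smaller one. For selenop2 the SD was 0.73 (93.8% of 4028 genes smaller), for selenop 0.50 (87.0% of 733) and for selenow1 0.42 (79.3% of 1345). The SD of gpx4b, 0.30, was at the middle of genes of its level (47.7% of 1734 smaller). Those of gpx1a, 0.33 (33.8% of 3456), and selenoh, 0.20 (18.8% of 935), were below the middle. Without fed replicates 4 and 5 the variance was 294 times that of counting for gpx4a, 37.8 times for selenop, 15.6 for selenow1, 9.25 for gpx4b, 4.91 for selenoh, 4.61 for selenop2 and 4.54 for gpx1a. The SD of gpx4a was then 0.77, with 97.9% of genes of its level smaller, and that of selenop 0.46 (88.4%), while those of selenop2, 0.46 (65.4%), and selenow1, 0.30 (61.1%), came nearer to the middle.

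**Figure D3:**
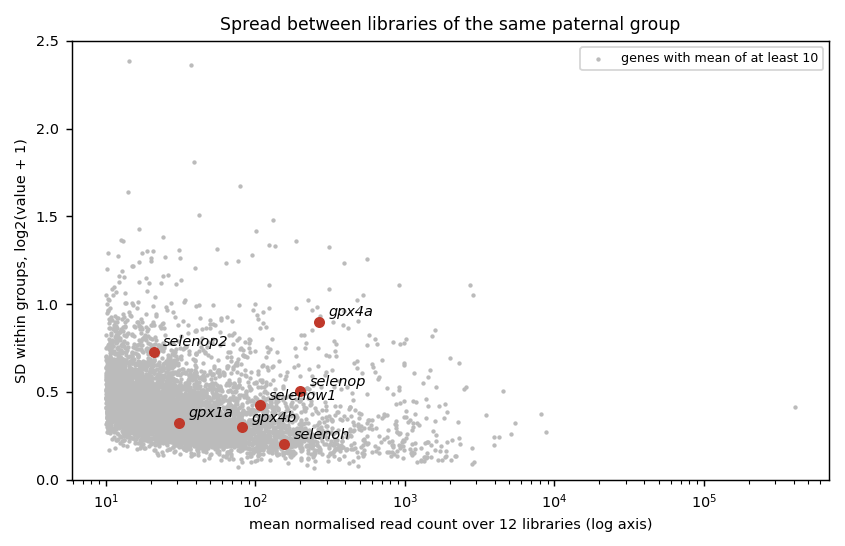
SD between libraries of the same paternal group on the log2(value + 1) scale (y axis) against the mean normalised read count over 12 libraries (x axis, log scale), for all genes with a mean of at least 10 (grey) and the 7 genes (red). Among genes of like level gpx4a lies near the top with an SD of 0.90 and selenoh low with 0.20.

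Several libraries stood on the same side of their group's mean for most of the 7 genes. In fed replicate 5 all 7 genes exceeded their group means, and in starved replicate 4 and in fed replicate 4 there were 5 of 7. In starved replicate 3 and in fed replicate 2 all 7 were below the group mean. There were 6 of 7 below it in fed replicates 3 and 6, and 5 of 7 in starved replicate 2 and fed replicate 1. High libraries raise the mean of their group, so that others fall below it follows in part from how it is computed. The mean deviation over the 7 genes on the log2 scale ran from -0.39 in starved replicate 3 to 0.48 in starved replicate 4, and from -0.45 in fed replicate 2 to 0.63 in fed replicate 5. In selenop this pattern was broken by fed replicate 4, where it was the lowest of its group.

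The spread of gpx4a went with that of apolipoprotein genes of the yolk-layer list, while the nearest genes of selenop2 were mostly not on that list. The genes whose values were most like those of gpx4a within the groups, among 5933 named genes with a mean of at least 10, were apoa1a (Pearson r = 0.98 over 12 libraries), apoa1b (0.98), apoa2 (0.97) and the transketolase gene tktb (0.97), of which the first 3 encode apolipoproteins. For selenop2 they were srprb (0.97), tktb (0.96), the transferrin gene tfa (0.96) and the glutamine synthetase gene glula (0.95). The gene srprb encodes a subunit of the receptor for the signal recognition particle. Of the nearest genes of selenop2, only tfa was on the yolk-layer list. These correlations are the highest of many values, given as a description of likeness, and the libraries share their scaling. The nearest genes of selenop were less like it, fras1 (0.83), bloc1s6 (0.83), the calcium pump gene atp2a3 (0.83) and the proton pump gene atp6v0ca (0.82), and none was on the yolk-layer list. Over the 10 libraries without fed replicates 4 and 5, r was 0.96 to 0.98 for the 4 genes of gpx4a, 0.89 to 0.94 for those of selenop2 and 0.76 to 0.86 for those of selenop.

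The other 4 genes had nearest genes of other kinds. For gpx4b these were snai2 (0.94), cops9 (0.94), the folate enzyme gene mthfd2 (0.93) and the ribosomal protein gene rpl3 (0.93). For gpx1a they were sypl2a (0.94), the complex I gene ndufs6 (0.91), abracl (0.90) and the mitochondrial transaminase gene got2b (0.88). For selenow1 they were lsm6 (0.93), the epidermal keratin gene cyt1 (0.90), slc37a2 (0.89) and snrpe (0.89); lsm6 and snrpe encode proteins of spliceosomal particles. For selenoh they were fam32a (0.89), the ribosomal protein gene rps10 (0.88), rbm8a (0.87) and pmm2 (0.86). Without fed replicates 4 and 5 these values were 0.92 to 0.96 for gpx4b, 0.89 to 0.93 for gpx1a, 0.73 to 0.80 for selenow1 and 0.73 to 0.85 for selenoh.

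Of the 29 yolk-layer and plasma protein genes, 28 were lower and 1 higher by mean log2 value in embryos of starved fathers, and their median log2 difference was -0.47. Without fed replicates 4 and 5, 21 were lower and 8 higher, with a median of -0.22, and their sum in the other 4 libraries of fed fathers was 7681 to 13000. With limma 0 passed without a block and 0 with the description code as the block. With the block on replicate number 6 of the 29 passed, all lower, where 0.227% of all genes did. By the authors' deposited FDR, 10 of the 29 were lower at an FDR below 0.05 and 0 were higher. That call was made in the lower direction for 0.621% of all genes. The lowest FDR values of the 29 were 3.73e-07 (ctsba), 1.81e-06 (apoa1b) and 1.21e-05 (apoc1), against 1.78e-05 for selenop2 and 0.000259 for selenop. None of the 29 was at 0 in any library. Set against their sum, gpx4a came to 26.3 ± 7.52 per 1000 in embryos of starved fathers and 23.2 ± 6.13 per 1000 in embryos of fed fathers (SD, n = 6 each), and selenop to 18.0 ± 5.04 in embryos of starved fathers and 23.6 ± 8.73 in embryos of fed fathers. For selenop2 the values were 1.38 ± 0.32 in embryos of starved fathers and 2.33 ± 0.65 per 1000 in embryos of fed fathers, with a range of 0.9 to 1.8 in embryos of starved fathers and of 1.66 to 3.35 in embryos of fed fathers. Relative to these genes gpx4a varied 2.28-fold over the 12 libraries, against 5.50-fold for its normalised read count, selenop 3.70-fold against 5.33-fold and selenop2 3.72-fold against 8.72-fold. The other 4 genes varied more relative to the yolk-layer sum than in their own count, selenoh 6.10-fold against 1.81-fold, gpx4b 4.36-fold against 2.03-fold, gpx1a 3.54-fold against 2.2-fold and selenow1 3.20-fold against 2.61-fold. The sum itself varied 5.04-fold, so for genes steadier than the sum a wider range follows in part from how the ratio is computed.

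The direction of the skeletal muscle genes depended on which libraries were left out. Of 13, all 13 were higher by mean log2 value in embryos of starved fathers (median log2 difference 0.60). Without fed replicates 4 and 5, 6 were higher and 7 lower, with a median of -0.04. With the libraries numbered 4 and 5 left out of both groups, 11 were higher and 2 lower, with a median of 0.20. Their summed value was 9404 (starved replicate 4) to 20040 in embryos of starved fathers. It was 4225 in fed replicate 4, 5244 in fed replicate 5 and 13490 to 20230 in the other 4 libraries of fed fathers. With limma 0 passed without a block and 0 with the description code as the block. With the block on replicate number 3 passed, all higher, where 0.0585% of all genes did. By the authors' deposited FDR, 7 of the 13 were higher at an FDR below 0.05 and 0 were lower. The share of all genes in the higher direction is not given here, so nothing is read from this count. The 12 epidermal genes, with a sum of 6634 to 13670 in embryos of starved fathers and of 8140 to 16070 in embryos of fed fathers, had a median log2 difference of -0.12 (0.20 without fed replicates 4 and 5), and the 9 neural genes, with a sum of 1377 to 1952 (starved) and of 1078 to 2195 (fed), one of 0.03 (-0.20 without them). The summed value of 6 hatching gland genes was 778 to 1713 in embryos of starved fathers and 747 to 3317 in embryos of fed fathers, with its highest values in fed replicates 5 and 4; the median log2 difference was -0.19, and 0.27 without them. That of 8 macrophage and myeloid genes was 16.7 to 42.5 in embryos of starved fathers and 13.8 to 48.3 in embryos of fed fathers, with mpeg1.1, cyba and cybb at 0 in some libraries. That of 12 erythroid genes was 1150.0 to 2732 in embryos of starved fathers and 899 to 2995 in embryos of fed fathers. With the block on replicate number 1 of the 12 passed, the globin gene hbbe1.1, named after its values were seen, which was higher (log2 difference 1.27 ± 0.66, SE, without the block; limma adjusted p = 0.0208 with it and 0.885 without). Globin genes have near-identical copies between which reads may be split. The erythroid gene gata1a and the hatching gland gene he1.3 were also at 0 in some libraries. The part of any of these tissues in the values of the 7 genes was not tested.

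**Figure D4:**
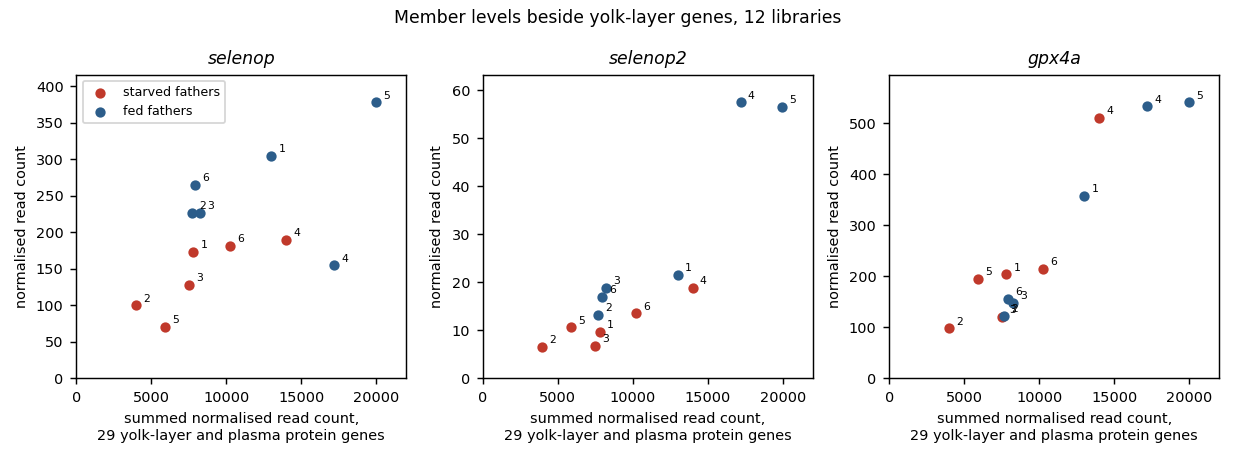
Normalised read count of selenop, selenop2 and gpx4a (y axes, from 0) against the summed normalised read count of 29 yolk-layer and plasma protein genes (x axis) in 6 libraries of embryos of starved fathers (red) and 6 of fed fathers (blue), numbered by replicate. Fed replicates 4 and 5 have the largest sums, 17180 and 19960, and the highest selenop2, whereas selenop is at 155 in fed replicate 4.

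**Figure D5:**
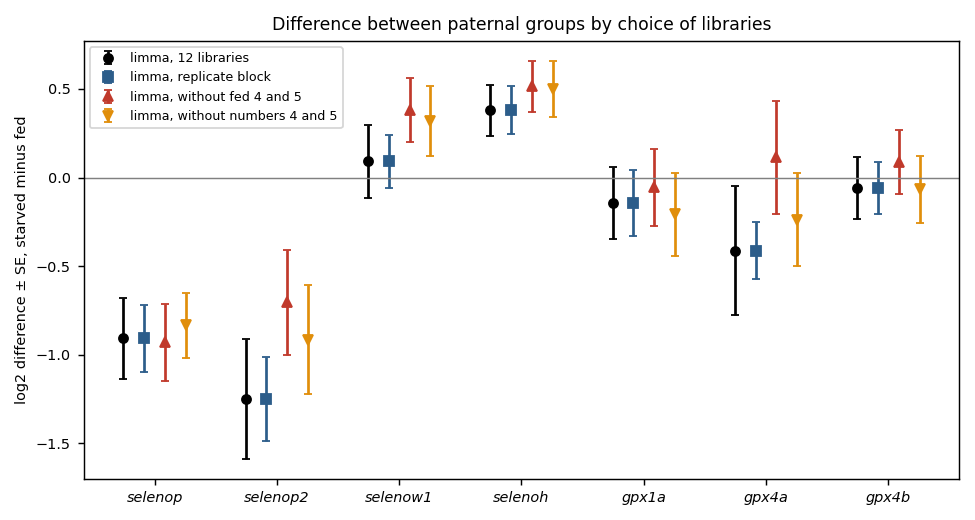
Log2 difference of starved minus fed fathers' embryos with its SE (y axis, limma) for the 7 genes (x axis) over all 12 libraries, with the replicate number as a block, without fed replicates 4 and 5, and without the libraries numbered 4 and 5 of both groups. The value of selenop stays between -0.93 and -0.84, that of selenop2 runs from -1.25 to -0.70, and that of gpx4a turns from -0.41 to 0.12 without fed replicates 4 and 5.

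Other genes of selenium and peroxide metabolism were read from fixed lists, and none passed limma's test over all genes, in either direction. Of 19 other selenoprotein genes measured, 3 were higher and 16 lower by mean log2 value in embryos of starved fathers, and their median log2 difference was -0.17. There were 9 higher and 10 lower without fed replicates 4 and 5, with a median of -0.04. The most abundant of them were selenow2a, a paralog of selenow1, at 95.8 ± 22.5 in embryos of starved fathers and 132 ± 37.0 in embryos of fed fathers, selenof, of the endoplasmic reticulum, at 88.2 ± 17.9 (starved) and 101 ± 40.2 (fed), the thioredoxin reductase gene txnrd3 at 96.2 ± 15.0 (starved) and 85.3 ± 4.13 (fed), and selenot2 at 53.7 ± 7.43 (starved) and 57.1 ± 11.6 (fed) (SD, n = 6 each). Their log2 differences were -0.45 ± 0.20, -0.14 ± 0.20, 0.16 ± 0.15 and -0.07 ± 0.17 (SE, limma, adjusted p = 0.885, 0.96, 0.944 and 0.982). At an unadjusted p below 0.05, which 5.54% of all genes reached, there were 2 of the 19, selenow2a and selenon, both lower.

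A gene chosen after its values were seen is selenon, which encodes a selenoprotein of the endoplasmic reticulum whose loss causes muscle disease in humans. It was at 3.91 ± 1.11 in embryos of starved fathers and 9.84 ± 4.78 in embryos of fed fathers (SD, n = 6 each), with a log2 difference of -1.08 ± 0.30 (SE, limma, adjusted p = 0.775). The second Gpx1 gene, gpx1b, was close to the floor, at 1.17 ± 0.91 in embryos of starved fathers and 1.78 ± 0.42 in embryos of fed fathers. The peroxidase gene gpx8, whose product has no selenocysteine, was at 4.22 ± 2.77 in embryos of starved fathers and 7.08 ± 4.91 in embryos of fed fathers (SD, n = 6 each; adjusted p = 0.896 with limma).

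Genes that make and insert selenocysteine or take up selenoprotein P showed small differences, 3 higher and 5 lower of 8 measured, with a median of -0.14. The synthetase paralog gene sephs1 was at 30.5 ± 8.0 in embryos of starved fathers and 31.8 ± 4.09 in embryos of fed fathers, and lrp2a, a receptor that takes up selenoprotein P in the mammalian kidney, at 20.2 ± 3.35 (starved) and 19.8 ± 2.91 (fed). The genes trnau1apa and trnau1apb, whose products bind the selenocysteine transfer RNA, were at 17.3 ± 5.84 and 15.2 ± 3.19 in embryos of starved fathers and at 20.4 ± 4.02 and 15.5 ± 5.44 in embryos of fed fathers (SD, n = 6 each). The smallest adjusted p of these 4 genes was 0.942 (limma, trnau1apa).

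Of 25 genes of glutathione synthesis, reduction and transfer, 7 were higher and 18 lower by mean log2 value, with a median of -0.16. There were 14 higher and 11 lower without fed replicates 4 and 5, with a median of 0.02. At an unadjusted p below 0.05 with limma, which 5.54% of all genes reached in either direction, there were 2 of the 25, both lower. The transferase gene gstp1 was at 40.3 ± 21.6 in embryos of starved fathers and 59.7 ± 26.7 in embryos of fed fathers, glrx3 at 40.7 ± 8.25 (starved) and 41.0 ± 6.4 (fed), gclc, the catalytic subunit of the enzyme that limits glutathione synthesis, at 37.9 ± 6.11 (starved) and 36.2 ± 12.5 (fed), and mgst3b at 26.1 ± 13.3 (starved) and 33.2 ± 29.8 (fed) (SD, n = 6 each). Of 16 genes of other peroxide and superoxide enzymes and thioredoxins, 8 were higher and 8 lower, and 10 were higher and 6 lower without those libraries. The peroxiredoxin gene prdx2 was at 183 ± 28.2 in embryos of starved fathers and 162 ± 16.9 in embryos of fed fathers, and prdx5 at 81.9 ± 41.5 (starved) and 68.9 ± 17.9 (fed).

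In the same list the thioredoxin gene txn was at 94.8 ± 39.5 in embryos of starved fathers and 143 ± 61.0 in embryos of fed fathers, and nqo1, a known target of the transcription factor Nrf2, at 49.3 ± 15.2 (starved) and 68.4 ± 27.4 (fed) (SD, n = 6 each). The adjusted p of txn was 0.885 with limma, while the authors' deposited table lists it with an FDR of 0.0418. Of 14 genes of Nrf2 regulation, iron storage and the lipid peroxidation that Gpx4 limits, 5 were higher and 9 lower, with a median of -0.10. The ferritin gene fth1a was at 318 ± 26.6 in embryos of starved fathers and 332 ± 39.7 in embryos of fed fathers, fthl27 at 200.0 ± 55.2 (starved) and 219 ± 17.7 (fed), slc3a2a at 62.2 ± 31.6 (starved) and 68.3 ± 33.9 (fed), and acsl4a, which puts polyunsaturated fatty acids into membrane lipids, at 55.7 ± 25.8 (starved) and 67.6 ± 27.2 (fed).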

How the data were processed

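RNA of whole embryos went into 3' tag libraries (QuantSeq, forward version) that were sequenced on a NextSeq, per the labels' protocols. Reads were aligned with STAR on GRCz11 (danRer11) and compared with edgeR, per the submitters' processing notes; versions, counting program, strand use and gene filter are not stated there. The file that the authors deposited lists 13680 genes with a log2 fold change, an FDR (an adjusted p-value) and 12 library columns. The log2 fold change is the authors' own, starved over fed, per the file headers and the library columns. The deposited library values are a signal, found from the values to be counts over a size factor; in each library 100% of them lay within 0.03 reads of a whole number of reads. Library columns were assigned by the labels' descriptions, and no 2 libraries of a group were duplicates (chi-square per degree of freedom 6.33 to 40.6 over 30 pairs).

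Log2(value + 1) was fitted with limma 3.58.1 (variance trend, R 4.3.3) on the whole table, adjusted by Benjamini-Hochberg, threshold 0.05. Recovered reads were tested with edgeR 4.0.16, limma-voom and DESeq2 1.42.0 as alternatives, beside other pseudocounts (0.5 and 5), a minimum mean of 5, scaling to nuclear reads, blocks, and libraries left out. The fits were also run on simulated data, in which libraries were drawn independently, without any likeness between same-numbered libraries. The outcome is not given here and nothing is read from it. Same-numbered libraries of the 2 groups deviated together, by the Pearson r of their deviations from group means over 6425 genes. This r was 0.141 to 0.523 (6 of 6 pairs over 0.1), and -0.367 to 0.319 between libraries of different numbers (median -0.073). Each library of starved fathers had its highest r with the fed library of its own number. The labels do not state a pairing, but same-numbered libraries of the 2 groups carry the same description code. Libraries 5 and 6 of both groups have one code in common and are told apart by a letter, D for 5 and E for 6.

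The 7 genes and the gene lists were chosen with earlier results of these data known. From each list the 4 genes with the highest mean were named, and for each of the 7 genes the 4 most correlated genes after removal of group means. List names not found in the table and promoter sequences were not analysed here.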

Additional observations from a re-analysis of the deposited data

Results flagged for a closer look

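Of 32 groups of 6 libraries examined for a single value far from the other 5 (the levels of the 7 genes, the shares of paralogs and the sums of marker lists), 2 held one; chance alone gives about 1 in 20. The first was gpx4a in embryos of starved fathers, at 509.9 in starved replicate 4, where the yolk-layer sum was also the highest of that group. The second was the share of selenop2 in the reads of selenop2 and selenop in embryos of fed fathers, at 27.1% in fed replicate 4.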

How the results depend on the processing

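Without a block limma called 0 genes; it called 39 with the replicate number as a block (replicate block) and 1 with the description code as a block. In every other setting run, limma, limma-voom, edgeR and DESeq2 called 0 genes, and no gene of the 6 lists of selenium, glutathione, peroxide and Nrf2 genes was called in any setting. Of the marker genes, the block on replicate number called 6 of the yolk layer, 3 of muscle and 1 erythroid, and the description code called 0. Over 24 alternatives, the log2 differences of selenop, selenop2, selenoh and gpx1a kept their sign. It changed in 1 alternative for selenow1, 1 for gpx4a and 3 for gpx4b, whose main values were below or near their errors in the fit without a block. With 1 library left out in turn, the difference ran from -1.04 to -0.73 for selenop, -1.44 to -1.03 for selenop2, 0.32 to 0.46 for selenoh and -0.69 to -0.20 for gpx4a. The variance over counting error then ran from 20.4 (without fed replicate 5) to 36.7 for selenow1, 5.58 (without fed replicate 4) to 10.6 for selenoh and 7.08 (without starved replicate 3) to 12.1 for gpx4b; the cause was not tested. Without both fed replicates 4 and 5 it was 37.8 for selenop, 4.61 for selenop2, 15.6 for selenow1 and 4.91 for selenoh. In that setting the median log2 difference of the 7 genes changed sign, as did those of the muscle, hatching gland, epidermal, neural and glutathione lists. With the libraries numbered 4 and 5 left out of both groups, each of the 7 genes kept its sign. The muscle median was then 0.20, and those of the hatching gland, epidermal and neural lists were 0.10, 0.14 and -0.15. No scaling moved the median of all genes by over 0.1. Depth limits selenop2 most, with 20 to 191 reads per library.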
